A study of Mus musculus with 6 samples.

Results

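The Apoe gene cluster of the mouse, made up of Apoe, Apoc1, Apoc4 and Apoc2, lies on chromosome 7, and its mRNAs were compared between heme-treated and control bone marrow-derived macrophages (BMDMs). The 4 genes were taken by symbol from the 25700 gene identifiers of the count tables. Of these 4 genes, 3 passed the filter on low counts and entered a test across 12433 genes, and Apoc4 did not. The BMDMs were grown from bone marrow of C57BL/6J mice of 8 to 10 weeks in 100 ng/ml M-CSF, the growth factor that turns marrow cells into macrophages. The study asked whether heme, the iron-containing group of hemoglobin, changes the phenotype of these cells. On day 3, 3 cultures were given 300 μM heme bound to albumin (heme) and 3 were given albumin without heme (control), and RNA was collected on day 7. Each library came from 1 mouse, and whether equal replicate numbers mark the same mouse is not stated.

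Apolipoproteins are the protein part of lipoproteins, the particles that carry cholesterol and triglycerides. Apoe encodes apolipoprotein E, which binds lipoprotein receptors and is secreted by macrophages, where it takes up cholesterol that leaves the cell. Apoc1 encodes apolipoprotein C-I, which hinders receptor binding and lipolysis of lipoproteins, Apoc2 encodes apolipoprotein C-II, the cofactor of lipoprotein lipase, and Apoc4 encodes apolipoprotein C-IV, a minor lipoprotein component. The liver and macrophages are main sources of apolipoprotein E, and in macrophages the cluster is known to be transcribed through shared enhancers under the nuclear receptors LXRα and LXRβ, which sense oxysterols.

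All 4 genes of the cluster had lower counts in every heme library than in every control library. Apoe mRNA was 10.4-fold lower in heme-treated BMDMs (427 ± 40.7 CPM) than in control BMDMs (4445 ± 1043 CPM; SD, n = 3 each). Apoc2 mRNA was 11.5-fold lower, at 4.83 ± 0.614 CPM in heme-treated and 55.5 ± 14.8 CPM in control BMDMs. Apoc1 was close to the limit of detection, with 1 count summed over the heme libraries and 66 over the control libraries, and Apoc4 had 0 and 8 counts. CPM are read counts scaled by TMM, which sets the libraries to a common size. The 3 tested genes were called lower at an adjusted p under 0.05 (edgeR's quasi-likelihood test, Benjamini-Hochberg adjustment over all 12433 genes), a call that 30.8% of all tested genes received, while 31.7% were called higher and 62.5% were called in either direction. Of the 3, Apoc1 entered the test through its control counts alone. With library sizes alone in place of TMM, 5814 genes were called lower and 2580 higher, against 3831 lower and 3938 higher with TMM, and the median log2 fold change of all genes moved by -0.22, while the log2 fold change was -3.60 for Apoe and -3.75 for Apoc2. The complete separation of heme from control libraries that the 4 genes showed was not rare either, since all heme libraries lay below all control libraries for 34% of the tested genes, and the groups did not overlap in either direction for 68.8%. With 3 libraries against 3, the exact two-sided permutation test gave p = 0.1 for each of the 4 genes, the smallest value it can give. In bulk samples, fewer cells that express a gene and less RNA per cell cannot be told apart.

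The libraries held 27201038 to 32994595 counts, and the 20 most abundant genes took 24.6% to 26.7% of them in heme libraries and 17.4% to 19.4% in control libraries. The cells carried the macrophage markers as their label says, with a sum over 10 markers of 36734 to 39984 CPM in heme libraries and 32097 to 37922 CPM in control libraries. Most of this sum was Lyz2, and the other 9 markers summed to 5738 to 6055 CPM in heme libraries and 6927 to 7672 CPM in control libraries. Of the 10 markers, 7 were called lower and 2 higher with heme (70% and 20%, beside 30.8% and 31.7% of all tested genes). Among the other cell types, 8 of 9 tested neutrophil markers and 7 of 9 tested monocyte markers were called higher with heme. These are 88.9% and 77.8%, beside 31.7% of all tested genes. In each list 1 marker was called lower (11.1%, beside 30.8%). Summed neutrophil markers stood at 1376 to 1523 CPM in heme libraries and 86.5 to 153 CPM in control libraries, and summed monocyte markers at 562 to 665 CPM in heme libraries and 92.6 to 172 CPM in control libraries. Without F13a1, which was not called, the monocyte sum was 457 to 510 CPM in heme libraries and 41.8 to 45.5 CPM in control libraries. Mmp8 made up most of the neutrophil sum in heme libraries. Without it the sum was 123 to 165 CPM in heme libraries and 57.8 to 117 CPM in control libraries. Most of this remainder in control libraries was Csf3r, the neutrophil marker called lower (35.5 CPM in heme-treated and 75.2 CPM in control BMDMs). Among the 8 called higher, S100a8 had 34.3 CPM in heme-treated and 2.02 CPM in control BMDMs. Mpo, another of them, had 22.3 CPM in heme-treated and 0.0102 CPM in control BMDMs. Summed stromal markers stood at 15.2 to 16.2 CPM in heme libraries and 2.08 to 2.60 CPM in control libraries. Most of this was Acta2, and without it the sum was 1.10 to 1.42 CPM in heme libraries and 0.276 to 0.627 CPM in control libraries. Summed dendritic cell markers stood at 109 to 113 CPM in heme libraries and 186 to 249 CPM in control libraries. Their part in the fall of the cluster was not tested. Hepatocytes and adipocytes also make apolipoprotein E. The summed hepatocyte markers were at 0.395 to 0.943 CPM in heme libraries and 0.686 to 0.939 CPM in control libraries, with 7 of 9 markers, Alb and Ttr included, at 0 in all libraries. The summed adipocyte markers were at 75.7 to 77.1 CPM in heme libraries and 71.5 to 81.4 CPM in control libraries, most of it Fabp4. Without Fabp4 they were at 13.7 to 15.0 CPM in heme libraries and 19.4 to 21.3 CPM in control libraries. Of the 10 adipocyte markers, 3 (Lep, Cfd and Pck1) were at 0 in all libraries. Adipoq and Plin1 each had a mean of 0.0356 CPM in heme libraries and 0 in control libraries. Of the 2 tested adipocyte markers, Lipe was called lower with heme (log2 fold change -0.50, adjusted p = 0.000456, edgeR). Erythroid markers summed to 1.14 to 1.65 CPM in heme libraries and 0.884 to 1.19 CPM in control libraries. Without Hbb-bt, this sum was 0.147 to 0.474 CPM in heme libraries and 0.884 to 1.19 CPM in control libraries.

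The cluster is transcribed from the minus strand in the order Apoe, Apoc1, Apoc4 and Apoc2. In GENCODE M21 (assembly GRCm38.p6), Apoe (ENSMUSG00000002985) occupies positions 19696109 to 19699188 of chromosome 7 with 2138 exonic bases. Apoc1 (ENSMUSG00000040564) lies at 19689481 to 19692660 with 744 exonic bases. Apoc4 (ENSMUSG00000074336) lies at 19678083 to 19681479 with 2537 exonic bases, and Apoc2 (ENSMUSG00000002992) at 19671579 to 19677941 with 813 exonic bases. All 4 are protein-coding genes. Another annotation on the same strand, Gm44805 (ENSMUSG00000109350, at 19671584 to 19681423), runs across both Apoc4 and Apoc2. It shares 646 exonic bases with Apoc2, which are 79.5% of the exonic bases of Apoc2 and 84.4% of its own. With Apoc4 it shares 119 exonic bases, 4.69% of the exonic bases of Apoc4 and 15.6% of its own. Apoe and Apoc1 overlap no other gene that was counted.

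The sequence just upstream of the start site is shown for the 2 members with the highest counts, Apoe and Apoc2, because both fell by similar amounts and their promoters can be read side by side. Both come from the promoter windows of RefSeq (GRCm38.p6), which span 250 bases before to 50 bases after a start site and were at hand for 3 of the 4 members. Apoe has 3 windows there, and the one at the annotated start of the gene was used. The run for Apoe covers chr7:19699189-19699438 and that for Apoc2 covers chr7:19677942-19678082, up to the annotated 3′ end of Apoc4, each given 5′ to 3′ on the minus strand so that its last base precedes the start site. Capitals mark the hexamer AGGTCA, the core bound by nuclear receptors.
Apoe upstream: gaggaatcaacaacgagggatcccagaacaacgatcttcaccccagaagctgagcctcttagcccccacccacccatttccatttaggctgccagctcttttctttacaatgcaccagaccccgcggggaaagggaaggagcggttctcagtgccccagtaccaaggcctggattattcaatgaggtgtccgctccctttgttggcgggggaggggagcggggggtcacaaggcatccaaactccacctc
Apoc2 upstream: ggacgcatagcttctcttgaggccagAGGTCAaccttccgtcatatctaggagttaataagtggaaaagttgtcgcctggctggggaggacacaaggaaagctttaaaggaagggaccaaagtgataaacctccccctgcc

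The windows were searched on both strands for 7 short motifs. In the window of Apoe none of them was found, which says only that these letters are not in these bases. The window of Apoc2 held AGGTCA at position -115 from the start site, as shown above, and at position 43 inside the transcript. The window of Apoc4 held AGGTCA at -25 and the GC box GGGCGG at -130. Among the RefSeq windows of all 32851 promoters, 16.3% held AGGTCA, 35.7% held GGGCGG, 12.4% held the antioxidant response element core TGACNNNGC, and 5.2% held the AP-1 site TGACTCA. The E-box CACGTG was in 7.15%, the TATA box TATAAA in 13.6% and the C/EBP site TTGCNNAA in 10.8%. AGGTCA read on the other strand, TGACNNNGC and TGACTCA have the letters TGAC in common. A match describes the letters of the window and is not a bound site.

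**Figure D1:**
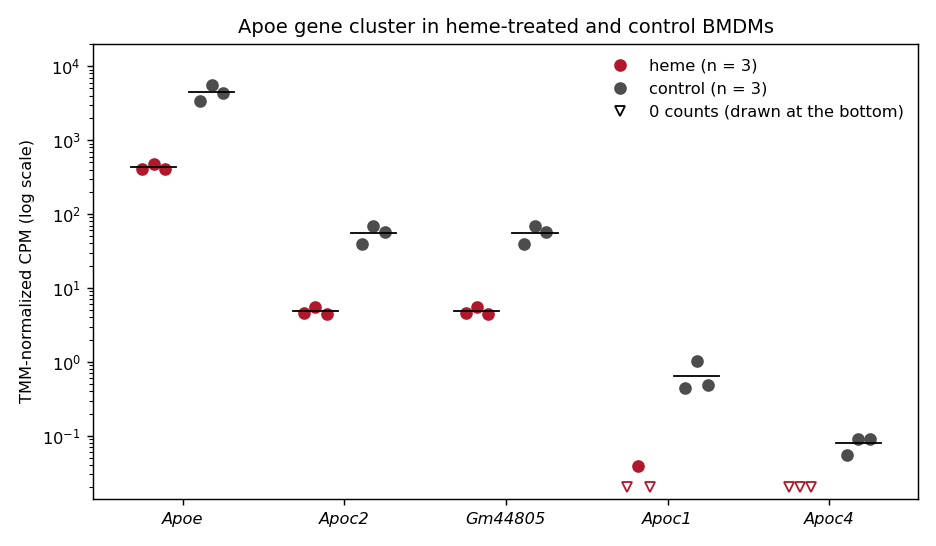
TMM-normalized CPM on a log axis for the 4 genes of the cluster and for Gm44805, which overlaps Apoc2 and Apoc4, with 1 point per library and a line at the group mean. Heme libraries stand left of control libraries for each gene, triangles at the bottom mark libraries with 0 counts, and no heme library reaches the level of a control library in any of the genes.

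Apoe was the most abundant mRNA of the cluster in both conditions. It reached 406, 474 and 401 CPM in heme libraries 1 to 3, against 3430, 5515 and 4391 CPM in control libraries 1 to 3. These levels rest on 12058, 12000 and 10934 counts in heme libraries and 124134, 184812 and 143601 counts in control libraries. The heme libraries lay close together, and the spread was larger among the control libraries, where control 1 was lowest and control 2 highest. The log2 fold change was -3.38 ± 0.17 (SE; adjusted p = 2.19e-07, edgeR), and 0.78% of the tested genes had a larger fall. In control libraries Apoe took 0.376% to 0.590% of all counts, and in heme libraries its share was 0.0373% to 0.0441%. Per kilobase of exon, its level ranked 216, 169 and 220 of 12433 tested genes in heme libraries, against 15, 10 and 13 in control libraries. By this measure Apoe was among the 20 highest mRNAs of every control library and of no heme library.

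Apoc2, whose product activates lipoprotein lipase, followed Apoe closely. Its level was 4.55, 5.53 and 4.40 CPM in heme libraries and 39.7, 69.0 and 57.9 CPM in control libraries. The counts behind these values were 135, 140 and 120 in heme libraries and 1436, 2313 and 1894 in control libraries. As for Apoe, heme 2 was the highest heme library, control 2 the highest control library and control 1 the lowest. This order was not particular to the cluster, since Cd83 and Hpgd, which lie outside it, showed it too. The log2 fold change was -3.53 ± 0.21 (SE; adjusted p = 5.74e-07, edgeR), and 0.643% of the tested genes had a larger fall.

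The counts of Apoc2 and Gm44805 cannot be taken as separate measurements. Gm44805 had 135, 140 and 120 counts in heme libraries and 1434, 2311 and 1895 counts in control libraries, so the number differed from that of Apoc2 by at most 2 in any library. Its log2 fold change was -3.53 (adjusted p = 5.77e-07, edgeR). Near-equal counts were not particular to this pair. Of 11 same-strand gene pairs with similarly large exonic overlap, this pair included, 5 had summed counts within 10% of each other. How reads in shared exons were counted is not given in the sources used here. Summing Apoc2, Apoc4 and Gm44805 into 1 feature gave a log2 fold change of -3.53 (adjusted p = 4.52e-07, edgeR), the same as for Apoc2 alone. Because Gm44805 nearly repeats the counts of Apoc2 and Apoc4 adds few, the sum could hardly differ. It therefore tested nothing on how shared reads were split.

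Apoc1 was barely detected. It had 0, 1 and 0 counts in heme libraries, against 16, 34 and 16 counts in control libraries. These are 0, 0.0395 and 0 CPM in heme libraries and 0.442, 1.01 and 0.489 CPM in control libraries. The single heme count came from heme 2, and control 2 was again the highest library. Scaled by library size, the summed counts gave a ratio of heme to control of 0.0189 (95% exact interval 0.000470 to 0.109), a difference of 53.0-fold with an interval of 9.19 to 2126 that covers counting error only. edgeR called the gene with a log2 fold change of -5.32 ± 0.85 (SE; adjusted p = 0.000456), a size that depends on the prior count because the heme group is nearly at 0. Without heme 2 no heme count was left and the fitted value was -7.37 (adjusted p = 0.00277). Apoc1 passed the filter through the control libraries alone, and under a stricter filter of 1 CPM in 3 libraries it was not tested.

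Apoc4 had 0 counts in each heme library and 2, 3 and 3 counts in the control libraries. A count of 0 in 1 heme library allows up to 0.101 to 0.119 CPM, depending on its depth, and 0 counts over all 3 heme libraries allow up to 0.0365 CPM. The 8 counts over all control libraries are 0.0781 CPM, which is 2.14-fold above this floor of 3 counts over the heme group. That ratio takes the control counts as exact. With counting error in both groups, the 95% exact interval of the fold difference starts at 1.37 and has no upper end. Leaving out heme 1 brought the ratio of control level to floor from 2.14 to 1.37. Without any filter on low counts, edgeR gave Apoc4 an adjusted p of 0.0433 over 16836 genes and limma-voom gave 0.00389, while DESeq2 gave an unadjusted p of 0.0738 and no adjusted p. At this depth a difference in Apoc4 was therefore at the edge of what could be detected, and its call turned on the tool.

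Apoe stood above Apoc2, and Apoc2 above Apoc1 and Apoc4, in both conditions. In control libraries Apoc1 stood above Apoc4, while with heme these 2 genes could not be ordered, because they differed by 1 count. Per kilobase of exon, Apoe stood at 188 to 222 CPM in heme libraries and 1604 to 2579 CPM in control libraries, and Apoc2 at 5.41 to 6.80 CPM in heme libraries and 48.8 to 84.9 CPM in control libraries. Apoc1 followed with 0 to 0.0531 CPM per kilobase in heme libraries and 0.594 to 1.36 in control libraries, and Apoc4 with 0 in heme libraries and 0.0218 to 0.0362 in control libraries. Neighbours in this order did not overlap in the control libraries, and in the heme libraries only Apoc1 and Apoc4 did, both at or under the level that a count of 0 allows. The level of Apoc2 includes reads that Gm44805 may share. The proportion of Apoe to Apoc2 was compared by the ratio of their counts. The log2 ratio of Apoe to Apoc2 counts was 6.48, 6.42 and 6.50 in heme libraries (mean 6.47 ± 0.0446, SD) and 6.43, 6.32 and 6.24 in control libraries (6.33 ± 0.0952). The mean of the ratio was 0.13 higher with heme, and this difference ranged over 0.09 to 0.18 when single libraries were left out. The exact two-sided permutation test gave p = 0.2 (n = 3 each; adjusted p = 0.2 over 6 pairs of members), and since it cannot give less than 0.1 in this design, it says nothing on whether the proportion was kept. The other 5 pairs involve the few counts of Apoc1 or Apoc4 and were not read further.

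**Figure D2:**
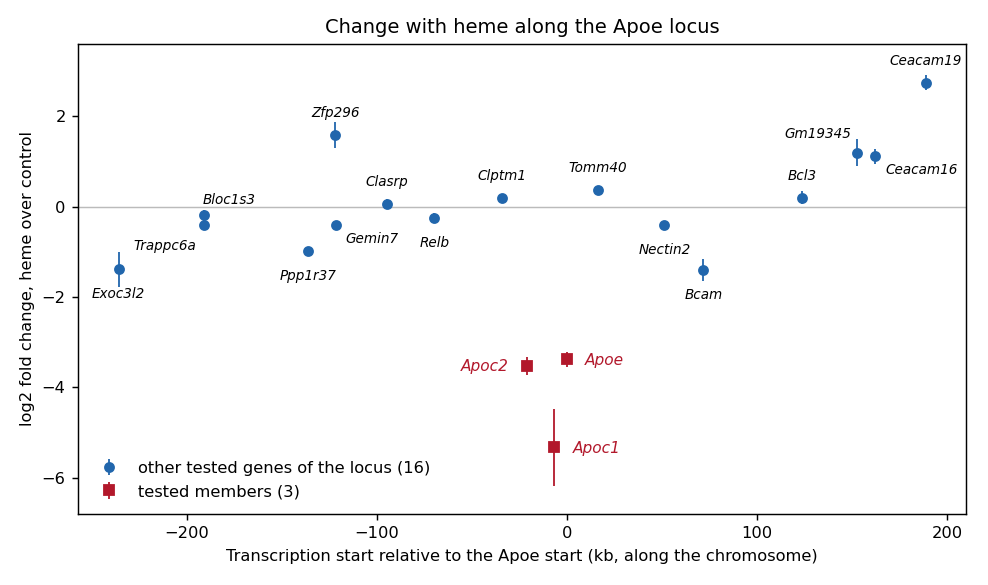
Log2 fold change, heme over control, with its standard error, against the distance of each gene's transcription start from that of Apoe in kilobases, for 16 tested neighbours (circles) and 3 tested members (squares). The members lie at -3.38 (Apoe), -3.53 (Apoc2) and -5.32 (Apoc1), below every neighbour of the locus, the lowest of which is at -1.40.

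The genes next to the cluster showed no fall of this size. Within 200 kb on either side lie 20 other annotated genes in the files, of which 16 were tested. Of these, 6 were called lower and 6 higher (37.5% each, beside 30.8% and 31.7% of all tested genes), and 4 were not called, with a median log2 fold change of -0.06 against 0.00 for all genes tested. Tomm40, which encodes the import pore of the outer mitochondrial membrane and starts 16.3 kb from Apoe, was slightly higher with heme, at 41.9 ± 1.91 CPM in heme-treated and 32.5 ± 4.46 CPM in control BMDMs (log2 fold change 0.36 ± 0.10, adjusted p = 0.00891, edgeR), and lost this call with library sizes alone (0.14, adjusted p = 0.251). Nectin2, a cell adhesion gene 51.3 kb away, fell modestly (log2 fold change -0.42, adjusted p = 0.00400, edgeR). On the side of Apoc2, Clptm1 had 208 ± 8.66 CPM in heme-treated and 183 ± 10.8 CPM in control BMDMs; its log2 fold change of 0.18 (adjusted p = 0.0365, edgeR) turned to -0.04 with library sizes alone and missed the threshold without heme 1, heme 3, control 2 or control 3 (adjusted p 0.087 to 0.126), with upper quartile scaling (adjusted p = 0.0638) and without a filter (adjusted p = 0.0654). Relb, which encodes a subunit of NF-κB, was not called (-0.25, adjusted p = 0.089, edgeR), and was called without heme 2 (adjusted p = 0.0263) or control 1 (adjusted p = 0.0119) and with library sizes alone (-0.47, adjusted p = 0.00497). Thus the nearest tested genes on both sides of the cluster differed by less than 1 on the log2 scale.

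Larger changes lay farther out and went both ways. Ceacam19, a cell surface gene of the CEA family at the far end of the window, rose to 13.7 ± 1.09 CPM in heme-treated BMDMs, against 2.05 ± 0.479 CPM in control BMDMs (log2 fold change 2.74, adjusted p = 5.94e-07, edgeR). Gm19345 (1.20) and Ceacam16 (1.11) also rose, but overlap each other, and Zfp296 (1.58), a zinc finger gene, rose and overlaps Gemin7. Bcam, which encodes a laminin-binding adhesion molecule, fell by 1.40 on the log2 scale and overlaps Gm45114. Exoc3l2 fell by 1.39 at a level of 0.158 CPM in heme-treated and 0.420 CPM in control BMDMs, a call that was lost without heme 1 (adjusted p = 0.0503) and in DESeq2 (adjusted p = 0.0583).

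**Figure D3:**
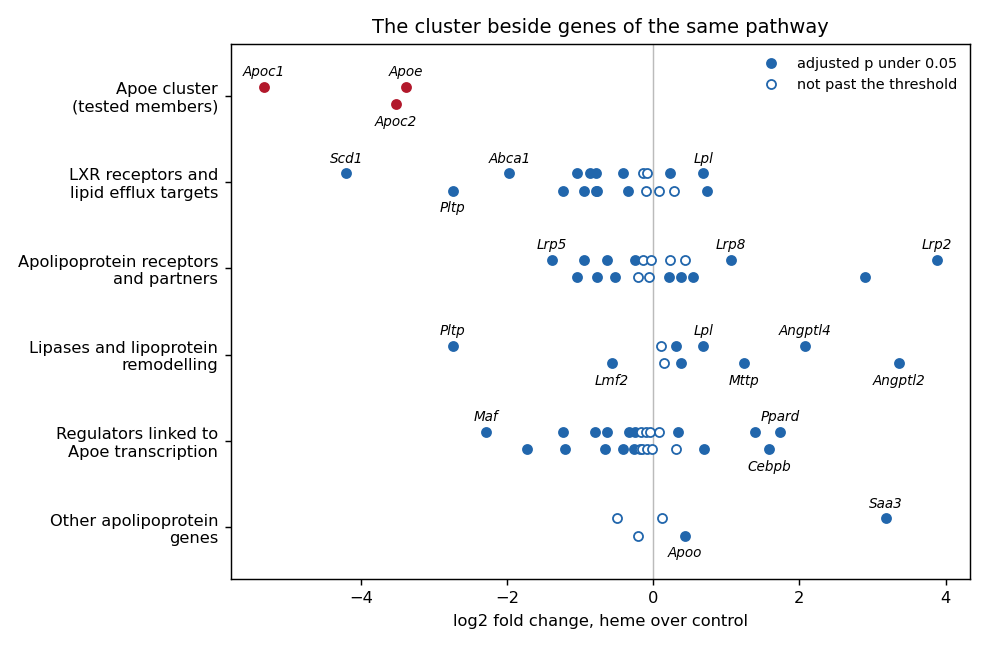
Log2 fold change, heme over control, of the tested genes of each list, with filled points for an adjusted p under 0.05 and open points for the rest. The 3 tested genes of the cluster lie at or below -3.38, and Scd1 at -4.20 is the only gene of the other lists below that value.

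Outside the cluster, few apolipoprotein genes were expressed. Of 22 such genes in the files, 5 passed the filter on low counts. Of these, 2 were called higher (40%, beside 31.7% of all tested genes), 0 lower (beside 30.8%) and 3 were not called. With upper quartile scaling or library sizes alone, or without heme 2 or control 2, 1 was called lower. Saa3, an acute-phase apolipoprotein made by macrophages, rose to 22.8 ± 2.13 CPM in heme-treated BMDMs, against 2.51 ± 0.0711 CPM in control BMDMs (log2 fold change 3.18, adjusted p = 2.78e-08, edgeR). Apoo, whose product is found in mitochondria, was at 6.88 ± 0.958 CPM in heme-treated and 5.09 ± 0.464 CPM in control BMDMs (log2 fold change 0.43, adjusted p = 0.0219, edgeR), a call lost without heme 3 (adjusted p = 0.107) or control 3 (adjusted p = 0.0807) and with library sizes alone (0.21, adjusted p = 0.218). Apoa1, Apoa4, Apoa5 and Apoc3 had 0 counts in all 6 libraries. These encode apolipoproteins that liver and gut make for the plasma.

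LXR receptors and their targets were described from a list that holds genes of lipid efflux and also genes of fatty acid synthesis. Of its 20 tested genes, 12 were called lower (60%, beside 30.8% of all tested genes) and 3 higher (15%, beside 31.7%), with a median log2 fold change of -0.59. Scd1, a fatty acid desaturase gene, fell to 14.6 ± 1.21 CPM in heme-treated BMDMs, against 268 ± 67.2 CPM in control BMDMs (-4.20). Pltp, which encodes the phospholipid transfer protein, had 149 ± 11.3 CPM in heme-treated and 998 ± 200 CPM in control BMDMs (-2.75), and its exons overlap those of Ctsa. Abca1, which encodes the transporter that hands cholesterol to lipid-poor apolipoproteins, had 121 ± 16.5 CPM in heme-treated and 474 ± 113 CPM in control BMDMs (-1.97). On the log2 scale the fall of Apoe (-3.38) lay between those of Scd1 and Pltp. Scd2 (-1.24) and Fasn (-1.04), which serve fatty acid synthesis, fell as well, while Abca2 (0.74) and Lpl (0.69) rose. Npc1, which exports cholesterol from lysosomes, rose by 0.23, and by 0.00 with library sizes alone (adjusted p = 0.951, edgeR). The mRNAs of the receptors themselves were not called: LXRβ (Nr1h2) changed by -0.08 (adjusted p = 0.337, edgeR) and LXRα (Nr1h3) by 0.08 (adjusted p = 0.672, edgeR).

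The partners of these apolipoproteins were called about as often as all genes. Of 19 tested genes for receptors and binding partners of apolipoproteins, 7 were called lower (36.8%, beside 30.8% of all tested genes) and 6 higher (31.6%, beside 31.7%), with a median log2 fold change of -0.06. Lrp1, a large receptor that takes up apolipoprotein E particles, had 838 ± 151 CPM in heme-treated and 970 ± 302 CPM in control BMDMs and was not called (adjusted p = 0.388, edgeR). Lrp8, the receptor also called apoER2, rose to 110 ± 8.59 CPM in heme-treated BMDMs, against 52.4 ± 16.6 CPM in control BMDMs (log2 fold change 1.07, adjusted p = 0.000810, edgeR). Lrp5 (-1.39) and Lrp6 (-1.04), which act as Wnt co-receptors, fell, and Lrp2 was called higher but stayed under 1 CPM in all libraries. Lrp2 had 40 counts over the heme and 3 over the control libraries, a ratio of 16.6 (95% exact interval 5.29 to 83.9, counting error only; the fitted log2 fold change was 3.88, and 4.66 without control 1). Lipoprotein lipase, the enzyme that apolipoprotein C-II activates, went the other way from Apoc2, with 6629 ± 382 CPM of Lpl mRNA in heme-treated and 4123 ± 557 CPM in control BMDMs (log2 fold change 0.69, adjusted p = 0.000472, edgeR). Of 10 tested genes for lipases and lipoprotein remodelling, 2 were called lower and 6 higher (20% and 60%, beside 30.8% and 31.7% of all tested genes), with a median of 0.35. The 2 lower ones were Pltp (-2.75) and Lmf2 (-0.57), a relative of the lipase maturation factor. Pltp and Lpl also belong to the list of LXR receptors and their targets. Angptl2, a gene of the angiopoietin-like family, rose to 670 ± 15.4 CPM in heme-treated BMDMs, against 64.8 ± 3.80 CPM in control BMDMs (3.37), and Angptl4, an inhibitor of lipoprotein lipase, rose to 4.08 ± 0.876 CPM in heme-treated BMDMs, against 0.974 ± 0.297 CPM in control BMDMs (2.07). Mttp, which loads lipids onto lipoproteins in liver and gut, also rose (1.25), and overlaps Trmt10a.

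Transcription factors linked to Apoe were described from a list of regulators. Of 25 tested regulators, 11 were called lower (44%, beside 30.8% of all tested genes) and 5 higher (20%, beside 31.7%), with a median log2 fold change of -0.17, and with library sizes alone 17 were called lower. Maf, a macrophage transcription factor gene, fell to 74.3 ± 11.1 CPM in heme-treated BMDMs, against 364 ± 28.3 CPM in control BMDMs (-2.29, adjusted p = 1.71e-07, edgeR). Ppard (1.74), Fos (1.39) and Cebpb (1.58), which overlaps Tmem189, rose. None of these regulators fell as far as Apoe on the log2 scale.

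**Figure D4:**
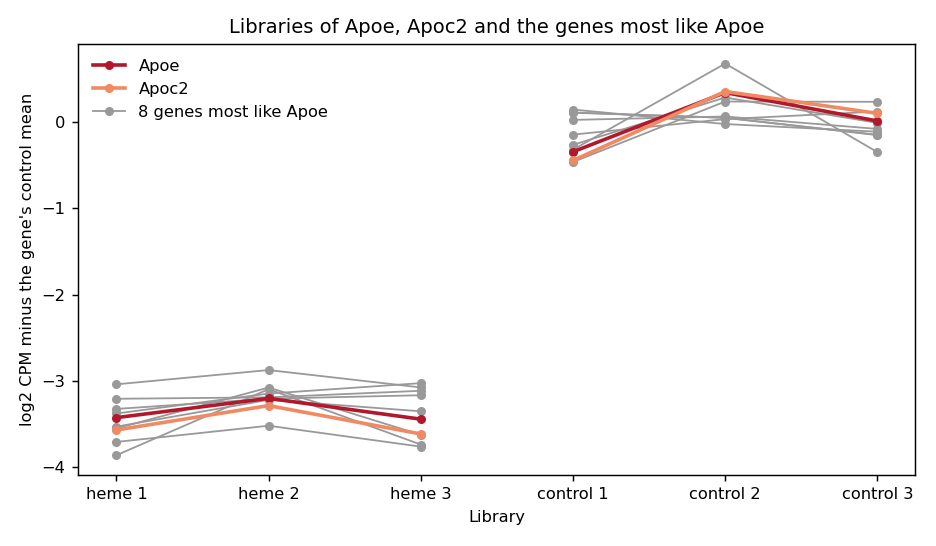
Log2 CPM minus the gene's own control mean in each library, for Apoe and Apoc2 (coloured) and the 8 genes whose values lie closest to those of Apoe (grey). All 10 genes lie between -3.86 and -2.87 in heme libraries, and among the control libraries Apoe and Apoc2 are both lowest in control 1 and highest in control 2. Of the grey genes, Cd83 and Hpgd share this order of control libraries and the others do not.

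Of all genes compared, Apoc2 had a profile close to that of Apoe over the 6 libraries. The measure was the Euclidean distance between log2 CPM values, each taken relative to the gene's control mean, and it was 0.274 between Apoe and Apoc2. Gm44805, which shares most of its exons with Apoc2, was likewise at 0.274. Among 8952 other genes of sufficient level that neither belong to the cluster nor overlap it, the median distance to Apoe was 5.84 and the 8 closest lay at 0.458 to 0.709. These were Frmd4b (0.458), Cd83 (0.545), Ctla2b (0.578), Arrdc3 (0.632), Hpgd (0.682), Gatm (0.688), Gm49391 (0.706) and Mex3b (0.709). Frmd4b had 23.1 ± 4.98 CPM in heme-treated and 244 ± 22.6 CPM in control BMDMs (log2 fold change -3.40). Cd83, a surface marker of mature dendritic cells and activated macrophages, had 3.87 ± 1.17 CPM in heme-treated and 45.3 ± 8.64 CPM in control BMDMs (-3.56). Of these genes only Mex3b, which encodes an RNA-binding protein, also lies on chromosome 7. Apoc2 and Gm44805, both left out of this ranking, were nearer to Apoe than any of them.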

How the data were processed

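RNA of 3 heme-treated and 3 control BMDM cultures was sequenced as stranded TruSeq libraries from RNA with an integrity number above 9. The deposited values are read counts for each Ensembl gene, as whole numbers and not normalized. The submitters' processing notes name STAR 2.7.0, featureCounts and GRCm38.p5. Not given in the sources used here are the strand setting, the annotation release and the treatment of reads in overlapping genes, and reads in such stretches could be lost or counted for both genes. Symbols, positions and overlaps came from GENCODE M21, in which 25587 of 25700 identifiers had a symbol.

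Counts were analysed with edgeR 4.0.16 in R 4.3.3 (filterByExpr with a minimum count of 10, TMM, glmQLFit and glmQLFTest, all 6 libraries, condition as the only term). Standard errors came from the F statistic. The procedure was tested on simulated data in which few genes changed and all genes shared the same spread. That test therefore does not cover changes as broad as those in these libraries. Replicates of a group differed beyond sampling noise, and p-values measure the spread between these cultures. The comparison was unpaired. limma 3.58.1, DESeq2 1.42.0, other scalings and filters, a replicate block and the omission of single libraries were tried as alternatives. A floor of 3 counts stood in for counts of 0.

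The genes of the cluster, the gene lists and the lists of cell type markers were chosen with earlier results of these data known. Named genes are the members, genes overlapping them, the 2 nearest tested neighbours on each side, called neighbours with an absolute log2 fold change of at least 1, the 5 called genes of each list that changed most and at most 3 that went against them, and the 8 genes most like Apoe. Lrp1, Nr1h2, Nr1h3, individual markers of cell types and the apolipoprotein genes at 0 counts were named after their values were seen. Results of a few genes that this rule names are not reported here.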

Additional observations from a re-analysis of the deposited data

How the results depend on the processing

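The falls of Apoe and Apoc2 kept their direction and their call under all 15 alternatives run for them, with log2 fold changes of -3.60 to -3.21 for Apoe (largest adjusted p = 8.99e-06) and -3.75 to -3.35 for Apoc2 (largest adjusted p = 1.83e-05). Apoc1, which passed the filter through the control libraries alone, kept its call under the 14 alternatives that tested it (-7.37 to -4.55, largest adjusted p = 0.00381). For Apoc4, the ratio of the control level to the floor of 3 heme counts ranged from 1.37 to 2.50. With library sizes alone, 5814 genes were called lower and 2580 higher (median log2 fold change -0.22), 17 of the regulators were called lower, and Clptm1 turned to -0.0387; the cause was not tested. Leaving the 20 most abundant genes out of the library sizes gave the counts of the report again (3831 lower and 3938 higher), because TMM rescales the libraries, so this setting tested nothing further. Among the other apolipoprotein genes, 1 was called lower with upper quartile scaling or library sizes alone and 2 without a filter, against 0 in the report, and 1 was called higher with library sizes alone or the replicate block, against 2. When single libraries were left out, this list had 0 to 1 genes called lower and 1 to 2 called higher. The replicate block called 3493 genes lower and 3671 higher; residuals of libraries with equal numbers were not positively correlated across genes (r = -0.0787, -0.124 and -0.0555), so the numbers were not used as a pairing. Under it Apoo (adjusted p = 0.0527) and Clptm1 (adjusted p = 0.0551) missed the threshold and Relb passed it (adjusted p = 0.0459, edgeR). Depth limits Apoc1 and Apoc4, whose sizes of change rest on 66 and 8 control counts.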
